A study of Mus musculus with 4 samples.

Results

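Barcodes that carried Arg1 but no Pax8 were examined in droplet single-cell RNA-seq libraries of the mouse Tbx1-Cre lineage. They were chosen by their own counts: 3 or more UMIs (unique molecular identifiers, each standing for 1 captured transcript) of Arg1, no UMI of Pax8, at most 2 UMIs of Epcam, at most 2 UMIs of Cdh5 and Pecam1 together, and at most 9 UMIs of Myl7. The limits on Epcam, on Cdh5 with Pecam1 and on Myl7 leave out epithelial, endothelial and cardiomyocyte barcodes. Of 14243 barcodes in all, 1854 met the rule. There were 296 of 1434 in Ctrl E8.5, 368 of 1090 in cKO E8.5, 385 of 5453 in Ctrl E9.5 and 805 of 6266 in cKO E9.5. All other barcodes of the same library are called the remaining barcodes.

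The study asked how loss of Tbx1, a T-box transcription factor gene, affects progenitors of the pharyngeal mesoderm. Ctrl embryos were Tbx1Cre/+;Rosa26-GFPflox/+ and cKO embryos were Tbx1Cre/flox;Rosa26-GFPflox/+, both on the Swiss Webster background. The upper part of the body was dissected at E8.5. At E9.5 it was the pharyngeal apparatus with the heart, and the study's summary of samples adds the back for these libraries. Living GFP-positive cells of pooled embryos were sorted. Each of the 4 groups was 1 library, so no difference below has a replicate check, no test was made, and every interval is a 95% interval for counting error only. Cre sits at the Tbx1 locus in both genotypes, so Ctrl cells also lack 1 working Tbx1 copy, and GFP marks every descendant of a cell that once used Tbx1, pharyngeal epithelium and endothelium included. Stage and dissected tissue cannot be told apart.

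Cardiopharyngeal mesoderm is the pool of pharyngeal mesoderm cells that feeds both poles of the heart and the muscles of the face and neck. Its second heart field is marked by Isl1, its posterior part additionally by Hoxb1, Osr1 and Foxf1, and FGF, BMP and retinoic acid signals act on its growth, differentiation and patterning. Arg1 encodes arginase, which splits arginine into ornithine and urea. Rdh10 makes the first oxidation step from vitamin A to retinoic acid, Aldh1a2 makes the second, and Rarb encodes a receptor that is itself a retinoic acid target. Vamp8 is a vesicle fusion protein of the SNARE family, and Pax8 is a paired-box transcription factor of thyroid, kidney and ear primordia.

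Short promoter stretches of 3 genes from the retinoic acid and Hox lists are shown for the motifs they hold, and they were chosen after the values were seen. RefSeq promoter windows (GRCm38.p6, from 250 bases before to 50 bases after the start of the gene) were held for 10 of 19 genes looked up. The retinoic acid motif below was found in 1 of the 10 and the HOX motif in 3. Capitals mark the match, and each line runs 5′ to 3′ along the gene.
Rarb, chr14:16575506-16575535, minus strand: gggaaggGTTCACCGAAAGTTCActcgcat
Hoxb1, chr11:96365585-96365614, plus strand: tgattggggggTGATGGATgggcgctggga
Hoxa2, chr6:52164924-52164953, minus strand: gacttttttggATCAATCAaacagacagtg
The Rarb capitals are a retinoic acid response element of the direct-repeat type, known as the DR5 element, searched on both strands with the bases between the repeats left free, which 0.0335% of 32851 promoters held. The Hoxb1 and Hoxa2 capitals match TGATNNAT, a joint motif of HOX and TALE homeodomain proteins, on either strand, which 8.85% of promoters held. The promoter of Stra6 also held it, and no window of these genes held the T-box motif AGGTGTGA (1.28% of promoters). A match describes letters and is not a shown binding site.

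Across the rule, Arg1 itself was 256, 244, 350 and 334 UMIs per 1000000 UMIs (UPM) in the Arg1-positive barcodes of Ctrl E8.5, cKO E8.5, Ctrl E9.5 and cKO E9.5, the order kept for all lists of 4 values below. In the remaining barcodes it was 34.4, 32.2, 21.7 and 32.6 UPM. The rule set this difference, so it is given as a description. The median barcode held 4, 6, 5 and 5 Arg1 UMIs, and of the remaining barcodes 60.2% to 83.6% held none. Barcodes just inside the threshold, with 3 Arg1 UMIs, numbered 94, 56, 104 and 171, and barcodes just outside it, with 2, numbered 146, 86, 143 and 328.

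The libraries differed in depth. The 4 libraries summed to between 25391654 and 104773150 UMIs, and the median Arg1-positive barcode held 17800.5, 25604, 17437 and 17484 UMIs against 17126.5, 22926, 16487.5 and 15637 in the remaining barcodes. Mitochondrial genes took 1.38% to 2.05% of UMIs in the Arg1-positive barcodes and 1.40% to 2.22% in the remaining ones. Ctrl E9.5 stood apart in its ribosomal protein genes, which took 24.7% of UMIs in the Arg1-positive barcodes against 30.3% to 31.0% in the other libraries, and the remaining barcodes showed the same gap. Between 2 and 55 barcode sequences were shared by 2 libraries, and 1 of them met the rule in both E9.5 libraries. Tbx1 was counted at 82.2, 139, 110 and 156 UPM in Arg1-positive barcodes, higher in cKO than in Ctrl at both stages. These are tags of transcript 3′ ends and do not check a deletion elsewhere in the gene.

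Arg1-positive, Pax8-negative barcodes were a larger share of the cKO library at both stages. At E9.5 they were 7.06% of Ctrl barcodes (Wilson interval 6.41 to 7.77) and 12.8% of cKO barcodes (12.04 to 13.7), a difference of 5.79 percentage points (Newcombe interval 4.71 to 6.86). At E8.5 they were 20.6% (18.6 to 22.8) and 33.8% (31.0 to 36.6), a difference of 13.1 points (9.62 to 16.6). Barcodes were also thinned to 10000 UMIs before the rule, and those with fewer were left out. Left out were 7, 0, 19 and 31 Arg1-positive and 128, 84, 536 and 687 remaining barcodes. This lowered the shares to 12.2%, 15.9%, 5.47% and 9.12%. The E9.5 difference was then 3.65 points and the E8.5 difference 3.66 points, so at equal depth the gap was about as wide at both stages. The shares also varied within libraries, since each pools embryos of both sexes as seen in its Xist and Y-linked UMIs. Among cKO E8.5 barcodes with 2 or more Xist UMIs and no UMI of the Y-linked Ddx3y or Eif2s3y, 119 of 214 met the rule (55.6%, 48.9 to 62.1), against 183 of 588 barcodes with a Y-linked UMI and no Xist (31.1%, 27.5 to 35.0). In cKO E9.5 the order was opposite, with 521 of 4643 (11.2%) and 147 of 751 (19.6%). In Ctrl the same shares were 19.98% and 16.9% at E8.5 and 8.20% and 7.04% at E9.5. In both cKO libraries the gap between these sets of barcodes was wider than the gap between the genotypes at the same stage. Which embryos gave the barcodes was not labelled, and the part of single embryos in the shares was not tested.

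The label of multilineage progenitors was checked against the markers Rdh10, Vamp8 and Hoxb1, which the rule did not use. Rdh10 was 37.2, 31.8, 81.1 and 40.7 UPM in Arg1-positive barcodes and 16.6, 17.0, 14.9 and 11.6 UPM in the remaining ones. Its log2 ratio was 1.16, 0.91, 2.45 and 1.81, larger at E9.5 than at E8.5. Hoxb1 was 30.5, 30.7, 35.0 and 59.5 UPM against 10.9, 9.30, 11.6 and 10.0 UPM, and its log2 ratio was 1.48, 1.72, 1.59 and 2.57. Vamp8 was 258, 227, 168 and 175 UPM against 151, 123, 76.1 and 71.8 UPM, a smaller log2 ratio of 0.78, 0.88, 1.14 and 1.29. All 3 were higher in Arg1-positive barcodes of every library. Since these markers were named with earlier results known, they describe the group and do not support it.

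Epithelial barcodes also held Vamp8 and Hoxb1. In Ctrl E9.5, with thinning, 75.3% of epithelial and 69.4% of Arg1-positive barcodes had a Vamp8 UMI. Thinning was to 10000 UMIs, with barcodes below that left out. A Hoxb1 UMI was then found in 19.1% (exact interval 15.2 to 23.5) of Arg1-positive Ctrl E9.5 barcodes and in 4.72% of the remaining ones. It was found in 24.5% of barcodes with 5 or more Epcam UMIs and in 0.844% of those with 5 or more UMIs of Cdh5 and Pecam1. Unthinned, these 4 populations had median depths of 17437, 16487.5, 19066.5 and 20744 UMIs and shares of 24.2%, 5.72%, 29.7% and 1.62%. The endothelial share was taken as a guide to the background of free RNA, which was not measured. In Ctrl E9.5 the Arg1-positive share lay above it. In Ctrl E8.5, with thinning, 1 of 7 endothelial barcodes had a Hoxb1 UMI (14.3%, 0.361 to 57.9), against 16.6% of Arg1-positive barcodes. The part of free RNA was not tested. In cKO E9.5 the thinned share of Arg1-positive barcodes with a Hoxb1 UMI was 32.3% (29.0 to 35.7), and 0 of 36 endothelial barcodes had one (exact upper limit 9.74%).

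At E9.5, barcodes with more Arg1 UMIs held more Hoxb1, Rdh10 and Vamp8. In cKO E9.5, Hoxb1 was 1.38 UPM in barcodes with no Arg1 UMI that passed the other limits, 16.7 UPM at 3 Arg1 UMIs, 77.6 UPM at 6 to 9 and 119.6 UPM at 10 or more. In Ctrl E9.5 the same steps were 2.24, 20.1, 43.2 and 58.8 UPM. Hoxb1 climbed at E8.5 too, from 24.8 UPM at 3 Arg1 UMIs to 63.0 UPM at 10 or more in Ctrl, the latter from 14 barcodes. In cKO E8.5 it went from 22.1 to 56.7 UPM. Rdh10 in Ctrl E9.5 was 12.1 UPM at no Arg1 UMI, 30.6 UPM at 3 and 115 UPM at 10 or more. At E8.5 Rdh10 stayed between 30.3 and 38.9 UPM from 3 Arg1 UMIs upward, so there it did not climb further within the group. Vamp8 in Ctrl E8.5 did not climb either, at 249, 269, 256 and 238 UPM at 3, 4 to 5, 6 to 9 and 10 or more Arg1 UMIs, while in Ctrl E9.5 it went from 136 UPM at 3 to 239 UPM at 10 or more. In cKO E8.5 Vamp8 did climb, from 168 UPM at 3 to 265 UPM at 10 or more. Meox1 in cKO E8.5 went from 14.0 UPM at no Arg1 UMI to 246 UPM at 4 to 5, and was 222 and 233 UPM above that. Depth moved with the Arg1 count as well: the median barcode of cKO E9.5 held 15258 UMIs at no Arg1 UMI, 16870 at 3 and 19549 at 10 or more. Its part in these levels, which are per UMI, was not tested.

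**Figure D1:**
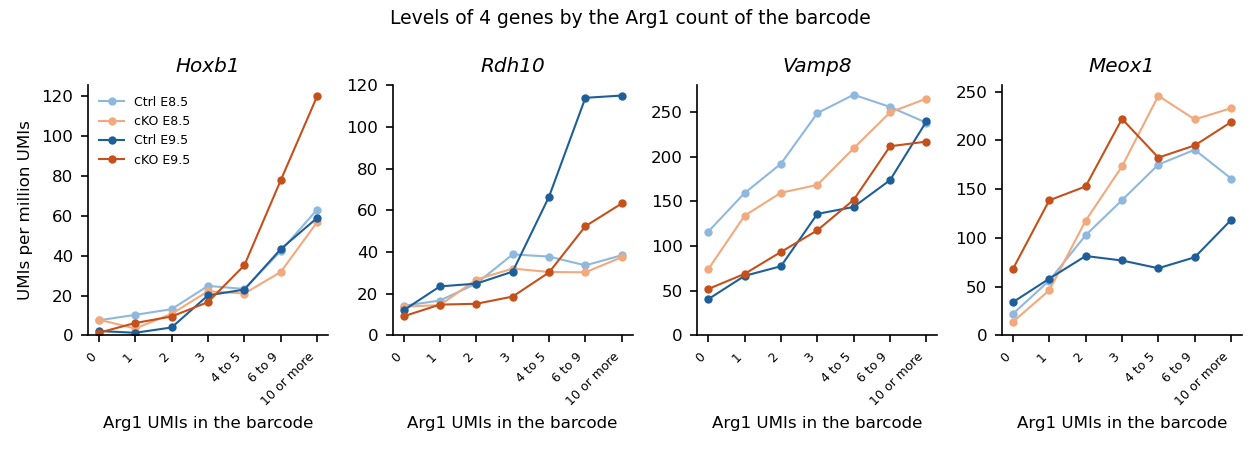
Levels of Hoxb1, Rdh10, Vamp8 and Meox1 (y axis, UMIs per 1000000 UMIs) in barcodes grouped by their Arg1 UMIs (x axis), for barcodes that pass the other limits, 1 line per library. Hoxb1 is at 1.38 UPM without Arg1 and at 119.6 UPM in the cKO E9.5 barcodes with 10 or more Arg1 UMIs, while Meox1 in cKO E8.5 stays between 222 and 246 UPM from 4 Arg1 UMIs upward.

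Across all genes the Arg1-positive barcodes differed from the remaining ones in few transcripts. Among 4248 genes with a mean of 20 UPM or more in every library, 2 (0.0471%) were 2-fold or more higher in each of the 4 libraries and 3 (0.0706%) were 2-fold or more lower. The higher genes were Hotairm1 and Meox1. Hotairm1, a long noncoding RNA of the HoxA cluster, was 113, 121, 64.4 and 41.2 UPM against 34.9, 28.0, 17.4 and 13.8 UPM. Meox1, a homeobox gene of the somite and of paraxial mesoderm, was 167, 225, 83.3 and 201 UPM against 41.2, 35.9, 31.8 and 94.3 UPM. The lower genes were Actc1, Myl4 and Acta2, which encode proteins of the contractile apparatus. Actc1 was 14.0, 7.13, 5.76 and 10.0 UPM against 84.6, 162, 96.0 and 51.7 UPM. None of the 3 was among the lower genes once the remaining barcodes were held to the same limits. By gene position (GRCm38.p6), Hotairm1 lies at chr6:52158524-52162020, Meox1 at chr11:101877510-101894354, Arg1 at chr10:24915207-24927470, Rdh10 at chr1:16105882-16132550, Vamp8 at chr6:72385221-72390667 and Hoxb1 at chr11:96365746-96368254.

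The next genes in order of the lowest of the 4 ratios, taken after their values were seen, were Rdh10, Hoxb2, Hoxb3os, Meis2, Vamp8, Meis1 and Plat. Hoxb2 was 40.9, 54.9, 75.6 and 99.7 UPM against 22.2, 26.6, 36.1 and 40.7 UPM. Meis1 and Meis2 encode TALE homeodomain proteins that bind DNA together with Hox proteins. Their lowest log2 ratios were 0.75 and 0.81. Noncoding RNAs of the Hox clusters overlap coding genes, as Hoxb3os does Hoxb2 on chromosome 11, and how the counting used strand is not given in the sources used here, so reads of Hotairm1, Hoxb3os and Hoxb2 may have been shared with an overlapping gene.

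**Figure D2:**
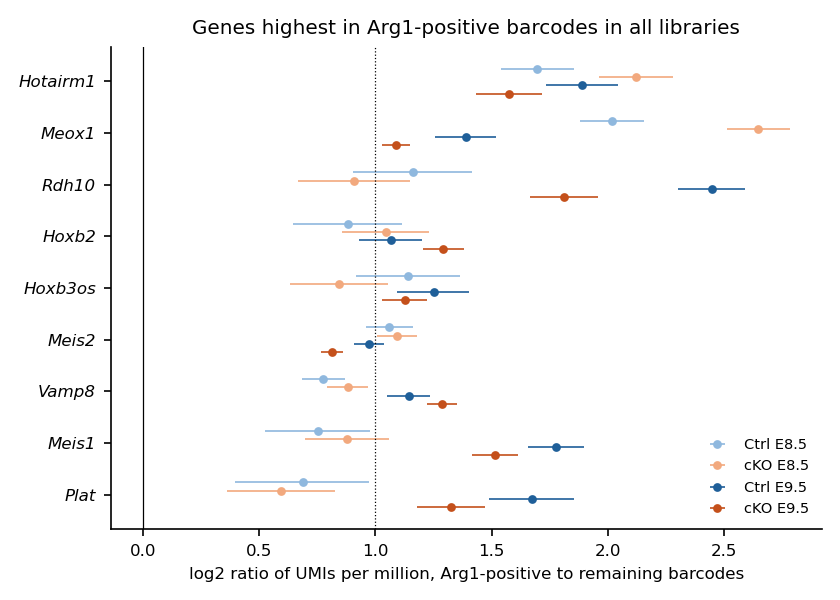
The log2 ratio of UPM between Arg1-positive, Pax8-negative barcodes and the remaining barcodes (x axis) for the 9 genes with the highest lowest ratio (y axis), 1 point per library with its 95% counting interval, and a dotted line at 2-fold. Hotairm1 and Meox1 lie past 2-fold in all 4 libraries, and Rdh10, Meis1 and Plat have higher ratios at E9.5 than at E8.5.

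The 39 listed Hox genes summed to 170, 179, 263 and 288 UPM against 67.7, 66.6, 97.5 and 106 UPM in the remaining barcodes, and 20 to 24 of them had no UMI in the Arg1-positive barcodes of a library. Of the 3 or 4 Hox genes that passed the filter on low values in a library, 2 or 3 were 2-fold or more higher and none was lower. Over all genes the share 2-fold or more higher was 0.281%, 0.252%, 1.05% and 0.375%. In all 4 libraries 1 Hox gene passed the filter, and 0 were 2-fold or more higher. The median log2 ratio was 1.48, 1.76, 1.33 and 1.29, against a median of all genes between -0.01 and 0.02. A gene low in the remaining barcodes can pass this filter through its level in the Arg1-positive ones. The counts and medians of these few Hox genes are therefore a description only. Hoxa2 was 25.9 and 31.9 UPM against 8.27 and 9.42 UPM at E8.5, and 34.6 and 36.4 UPM against 28.2 and 30.1 UPM at E9.5. Hoxb4 showed the opposite timing, at 2.83 and 2.85 UPM at E8.5 and at 36.7 and 23.6 UPM against 3.13 and 5.07 UPM at E9.5.

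The 19 listed retinoic acid genes summed to 643, 463, 915 and 720 UPM in Arg1-positive barcodes and 679, 644, 861 and 790 UPM in the remaining ones. Of these genes 4 passed the filter in all libraries and none was past 2-fold in all 4, while the median log2 ratio of those tested in a library was 0.05, 0.23, 0.26 and 0.40. The members described next were chosen from the list after their values were seen, and Aldh1a2, Rarb and Stra6 were below the 20 UPM of the filter in most libraries. Aldh1a2, the enzyme that completes retinoic acid synthesis, was 13.3, 19.0, 24.3 and 14.3 UPM in Arg1-positive barcodes and 5.67, 6.85, 0.710 and 0.926 UPM in the remaining ones. At E9.5 the thinned share of barcodes with an Aldh1a2 UMI was 13.9% in Ctrl and 8.79% in cKO, against 0.552% and 0.628% of the remaining barcodes and 0.422% of endothelial barcodes in Ctrl. Rarb, whose response element is printed above, was 18.2, 22.6, 19.6 and 14.2 UPM against 8.63, 10.2, 7.45 and 6.49 UPM. Stra6, the cell surface receptor that takes up vitamin A, was 15.8, 11.7, 22.0 and 14.4 UPM against 5.72, 5.09, 8.44 and 5.03 UPM. Crabp1, a retinoic acid binding protein of the cytoplasm, went the other way at 176, 87.5, 263 and 198 UPM against 301, 286, 275 and 351 UPM.

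The 22 genes of arginine and polyamine metabolism, Arg1 left out, had median log2 ratios of -0.04, 0.02, -0.03 and 0.01. In a library 0.252% to 1.05% of all genes were 2-fold or more higher, and none of the 9 to 11 tested from this list was. In each E8.5 library 1 of them was 2-fold or more lower, Sat1, which acetylates polyamines, at 20.7 and 24.9 UPM against 53.8 and 64.1 UPM, where 0.561% and 0.629% of all genes were lower. The 15 SNARE and vesicle genes had medians between -0.08 and 0.10, and Vamp8 was the 1 member past 2-fold at E9.5. S phase and G2/M genes, 22 each, had medians between -0.07 and 0.11, with none past 2-fold. Signalling genes were mixed. The 19 FGF genes had medians of 0.09, 0.02, 0.13 and 0.31, the 21 BMP genes -0.50, -0.37, 0.35 and 0.04, the 26 WNT genes -0.23, -0.29, -0.45 and -0.09, and the 17 Notch genes 0.19, 0.40, 0.19 and -0.03. The 17 genes of nascent mesoderm summed to 69.9, 83.3, 52.7 and 55.3 UPM against 47.2, 53.2, 54.05 and 65.5 UPM, with 8, 5, 7 and 8 of them at 0 and only 1 or 2 past the filter in a library. Among them, T, Mesp1 and Tbx6 were each at 0.531 UPM or less in Arg1-positive barcodes. Pdgfra, a receptor of paraxial and other early mesoderm, was 32.4, 44.9, 34.0 and 33.9 UPM against 18.6, 25.8, 31.6 and 34.3 UPM.

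Summed markers of endothelium, epithelium and cardiomyocytes were lower in Arg1-positive barcodes, which the rule itself limits through Cdh5, Pecam1, Epcam and Myl7. Those of somite summed higher in all 4 libraries, at E9.5 through Meox1, and those of mesenchyme were near level or higher at E8.5 and lower at E9.5. The 8 endothelial markers summed to 145, 103, 82.5 and 64.6 UPM against 341, 365, 309 and 116 UPM, with Kdr at 18.8, 15.8, 13.7 and 7.75 UPM. Of the endothelial markers 1, 1, 0 and 0 were at 0. The 8 blood markers summed to between 0.408 and 4.94 UPM, with 6, 5, 3 and 2 of them at 0. The 10 epithelial markers summed to 59.1, 54.7, 190 and 61.9 UPM against 105, 90.1, 335 and 107 UPM. Of these, Krt18 was 99.1 and 29.3 UPM in the E9.5 Ctrl and cKO libraries, against 87.7 and 25.3 UPM in the remaining barcodes. The 8 cardiomyocyte markers summed to 111, 74.8, 303 and 128 UPM. Tnni1, a troponin gene of slow muscle and early heart, made up 253 UPM of the Ctrl E9.5 sum, above the 78.2 UPM of its remaining barcodes, and Ttn was 15.1 UPM against 32.7 UPM. Somite markers summed to 418, 523, 193 and 297 UPM against 168, 163, 156 and 193 UPM, and mesenchyme markers to 665, 678, 724 and 858 UPM against 655, 604, 788 and 1012 UPM. Of the E9.5 somite sums, Ctrl first, Meox1 made up 83 and 201 UPM, against 31.8 and 94.3 UPM in the remaining barcodes. The other somite markers together were not higher there. The mesenchyme markers tested at E8.5 had median log2 ratios of 0.04 and -0.01. Neural crest markers summed to between 21.4 and 29.0 UPM and neural markers to between 19.7 and 59.6 UPM.

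The group was not 1 kind of cell. Barcodes were sorted by 2 or more summed UMIs of Meox1 and Tcf15, which mark somitic and paraxial mesoderm, and by 2 or more summed UMIs of 7 heart field genes, Isl1, Osr1, Foxf1, Hand2, Gata4, Gata6 and Nkx2-5. At E8.5, 56.8% of the Arg1-positive barcodes of Ctrl and 56.5% of those of cKO carried Meox1 or Tcf15 without the heart field genes. At E9.5 that class held 63 of the 385 Ctrl barcodes (16.4%, Wilson interval 13.0 to 20.4) and 294 of the 805 cKO barcodes (36.5%, 33.3 to 39.9). The heart-field-only class ran the other way, at 13.5% and 9.78% at E8.5 and at 56.6% (51.6 to 61.5) and 23.4% (20.6 to 26.4) at E9.5, Ctrl first. Barcodes with both sets were 20.3%, 29.3%, 15.3% and 29.4%, and barcodes with neither were 9.46%, 4.35%, 11.7% and 10.7%. The data thus go against a single multilineage type, and the barcodes are named here by their counts.

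Thinning kept the order of the single-set classes and made the class with both sets smaller. At E8.5, Ctrl first, 56.1% and 59.5% of the thinned Arg1-positive barcodes were Meox1/Tcf15 only, 15.6% and 12.5% were heart field only, 6.92% and 9.78% carried both and 21.5% and 18.2% neither. After thinning to 10000 UMIs, 15.6% and 37.1% of the Arg1-positive barcodes at E9.5, Ctrl first, were Meox1/Tcf15 only, 59.3% and 25.1% were heart field only, and 6.56% and 14.3% carried both. Both sets were found in 0.706% and 2.18% of the thinned remaining barcodes, and in 0.422% of 237 thinned endothelial barcodes of Ctrl E9.5. The shares in Arg1-positive barcodes were above these. Doublets, 2 cells in 1 droplet, were not called. Among Arg1-positive barcodes 43, 8, 8 and 22 carried Xist and a Y-linked UMI together, and the part of doublets in the class with both sets was not tested.

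As shares of all barcodes, most of the E9.5 excess in cKO lay in the classes with Meox1 or Tcf15. Meox1/Tcf15-only Arg1-positive barcodes were 1.16% of the Ctrl and 4.69% of the cKO library, a difference of 3.54 points (2.95 to 4.14). Barcodes with both sets were 1.08% and 3.78%, a difference of 2.70 points (2.16 to 3.26). Barcodes with neither were 0.825% and 1.37%, a difference of 0.547 points (0.167 to 0.928). Heart-field-only barcodes were 218 of 5453 and 188 of 6266, a difference of -0.997 points (-1.68 to -0.332). The remaining barcodes differed in the same direction, with 12.1% and 26.2% Meox1/Tcf15 only and 26.0% and 11.4% heart field only. Of all barcodes with Meox1 or Tcf15, 43.6% and 65.7% at E8.5 and 14.0% and 23.7% at E9.5 met the Arg1 rule. These shares were taken without thinning. The median Arg1-positive barcode held 17800.5 UMIs in Ctrl E8.5 and 25604 in cKO E8.5, and the part of depth in these shares was not tested.

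**Figure D3:**
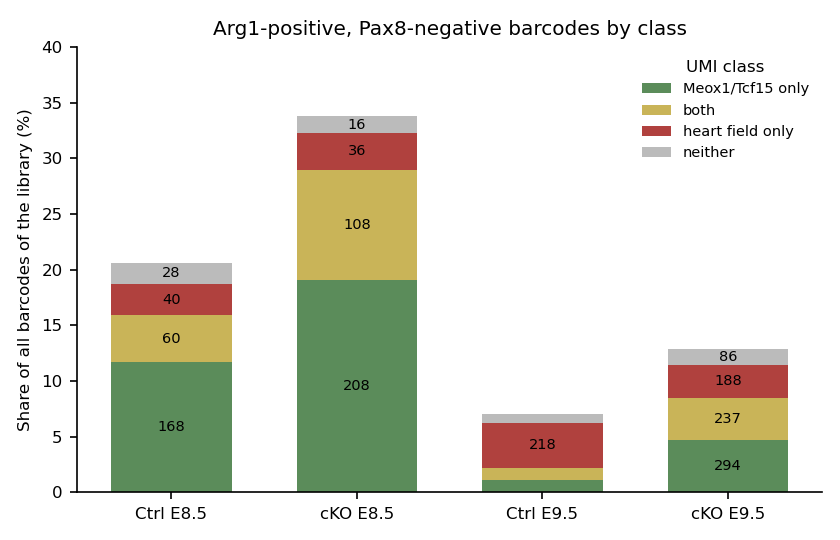
Arg1-positive, Pax8-negative barcodes as a share of all barcodes of each library (y axis, %), with bars from 0 stacked by UMI class and the number of barcodes written in the larger segments. Meox1/Tcf15-only barcodes are the largest class in both E8.5 libraries and in cKO E9.5, and heart-field-only barcodes are the largest class in Ctrl E9.5.

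The classes differed in genes that did not define them. In Ctrl E9.5 Bmp4, a growth factor of the outflow tract region, was 175 UPM in the heart-field-only class and 21.9 UPM in the Meox1/Tcf15-only class, and Fgf8 was 55.7 and 5.71 UPM. Krt18, a keratin gene of simple epithelia that early cardiac mesoderm also uses, was 149 and 5.71 UPM. Aldh1a2 was 38.0 UPM in the heart-field-only class and had no UMI in the other. Among mesenchymal and sclerotome genes, Foxc2 lay on the Meox1/Tcf15 side at 143 against 41.9 UPM, and Prrx1 at 102 against 24.4 UPM. Twist2 was near level, with a log2 ratio of heart field to Meox1/Tcf15 of 0.12 (-0.25 to 0.52). Fst was also higher in the Meox1/Tcf15-only class, at 184 against 14.5 UPM. Arg1, Rdh10, Vamp8 and Meis2 were nearly level in Ctrl E9.5, with log2 ratios of heart field to Meox1/Tcf15 of 0.02, 0.06, 0.17 and 0.33. At E8.5 Hoxb1 was 79.7 UPM in the heart-field-only class and 10.4 UPM in the other in Ctrl, and 54.4 and 9.61 UPM in cKO.

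Within each class, Arg1-positive barcodes were compared with barcodes of the same class and limits that had no Arg1 UMI. In the heart-field-only class 5 of 4188 genes were 2-fold or more higher and 5 lower in all 4 libraries, and in the Meox1/Tcf15-only class 0 and 0 of 4102. The higher genes were Hotairm1, Ptges, Plat, Bmp7 and Vamp8, and the lower ones Socs2, Ebf2, Celf2, Ebf1 and Gadd45g. Ptges, which makes prostaglandin E, was 46.5, 35.6, 40.4 and 32.4 UPM against 2.52, 7.42, 6.20 and 8.44 UPM. Ebf1, a helix-loop-helix transcription factor gene, was 98.2, 68.9, 41.4 and 52.6 UPM against 228, 262, 218 and 176 UPM. Aplnr, the apelin receptor gene, was 110, 65.6, 68.5 and 14.3 UPM against 21.2, 11.5, 8.90 and 2.29 UPM. Aldh1a2 was 23.9, 34.4, 38.0 and 43.8 UPM against 2.52, 2.60, 0.629 and 0.703 UPM, the widest gap of these genes at E9.5.

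Hox and apelin receptor transcripts also went with Arg1 inside the Meox1/Tcf15-only class, though fewer genes did. Hoxb1 was 10.4, 9.61, 12.4 and 39.9 UPM in Arg1-positive barcodes of the class and 2.88, 0.842, 0.132 and 1.66 UPM in those without Arg1. Aplnr was 41.6, 19.8, 47.6 and 6.96 UPM against 20.2, 5.05, 1.98 and 0.984 UPM. Nrg1, a ligand of ErbB receptors, separated with Arg1 in this class at E9.5, at 38.1 and 7.89 UPM against 1.72 and 0.605 UPM. In the heart-field-only class of Ctrl E9.5 it did not, at 20.7 against 19.5 UPM.

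Between genotypes at E9.5, few genes differed in Arg1-positive barcodes beyond the difference of the remaining ones. A gene was counted when its log2 ratio in these barcodes, and that ratio minus the ratio of the remaining barcodes, were both at least 1 or both at most -1. Of 5096 genes, 1 (0.0196%) was higher by this count, Ebf2, and 10 (0.196%) were lower. The median log2 ratio of all genes was -0.21 in Arg1-positive and in remaining barcodes, beside the higher ribosomal share of the cKO E9.5 library, and ratios should be read against that shift. By their own ratio alone, 39 genes were 2-fold or more higher and 117 lower. By the count against the remaining barcodes, 1 of 19 tested cardiopharyngeal genes, 0 of 8 posterior second heart field genes and 0 of 6 mesenchyme markers differed.

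The 10 lower genes were 3632451O06Rik, Runx1t1, Igfbpl1, Pmp22, Dusp9, Spats2l, Hand2, Rgs5, Plagl1 and Mme. The uncharacterised gene 3632451O06Rik was 85.6 UPM in Ctrl and 9.82 UPM in cKO (log2 ratio -3.12, -3.39 to -2.86), against 34.9 and 14.5 UPM in the remaining barcodes. Pmp22, a membrane protein gene, was 63.2 and 14.3 UPM (-2.14), and Rgs5, a regulator of G protein signals, was 36.7 and 8.49 UPM (-2.11). Dusp9, a phosphatase of MAP kinases, was 145 and 59.6 UPM (-1.28), while in the remaining barcodes it was 50.5 and 49.3 UPM. Runx1t1 was 84.1 and 33.4 UPM, with 26.1 and 31.7 UPM in the remaining barcodes. Hand2, a bHLH factor of the heart and arch mesenchyme, was 54.0 and 22.2 UPM, with 9.65 and 8.78 UPM in the remaining barcodes. Ebf2, a factor related to Ebf1, was 12.4 and 29.3 UPM, with 49.5 and 56.6 UPM in the remaining barcodes. Ebf2 still passed the count without the Pax8 condition and with TMM scaling. It did not pass with 2 or more or 5 or more Arg1 UMIs, after thinning, or with the mean of per-barcode UPM. Ebf2 also did not pass with the deepest 5% of barcodes and those under 5000 UMIs left out. Nor did it pass within the Meox1/Tcf15-only or the heart-field-only class. All 10 lower genes were lower, and Ebf2 higher, in barcodes with Xist and in barcodes with Y-linked UMIs taken apart, with 7 and 10 of the 10 past 2-fold. The genes were chosen from these same barcodes, so the split describes them and is not a second check. Within the classes described above, fewer of the 10 passed the count, 1 in the Meox1/Tcf15-only class and 3 in the heart-field-only class. In the Meox1/Tcf15-only class the log2 ratio was above 0 for Igfbpl1 (0.83, -0.87 to 3.19) and Dusp9 (0.29, -0.24 to 0.87), and Plagl1 had no UMI in Ctrl and 6.02 UPM in cKO.

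Of the 26 listed cardiopharyngeal genes 19 were tested at E9.5. Of these, 9 had a log2 ratio of -1 or less and none of 1 or more, where 2.30% and 0.765% of all 5096 genes did. Of the 9, 1, Hand2, also passed against the remaining barcodes. A gene can pass the filter through its Ctrl level alone. The median was -0.76 beside the -0.21 of all genes. Isl1 was 152 UPM in Ctrl and 59.6 UPM in cKO, Nkx2-5 was 80.8 and 19.0 UPM, and Foxf1 was 82.4 and 30.6 UPM. Aplnr was 76.0 and 12.2 UPM (log2 ratio -2.64), and in the remaining barcodes 27.7 and 5.78 UPM. The size of this ratio differed within the libraries, at 108 and 6.43 UPM (-4.07, -4.48 to -3.68) in barcodes with Xist and 43.1 and 22.4 UPM (-0.94, -1.42 to -0.47) in those with Y-linked UMIs. Fgf8 and Fgf10, FGF ligands of the second heart field that the list does not hold, were 48.3 and 11.6 UPM and 21.5 and 3.61 UPM. Fgf8 also differed in this way, with log2 ratios of -2.63 (-3.01 to -2.26) and -1.19 (-1.67 to -0.72). Ratios above 0 were seen for 4 of the 19, among them Tbx1 at 110 and 156 UPM. Tcf21, a factor of branchiomeric muscle progenitors, was 55.7 and 42.2 UPM. These levels are sums over barcodes, so fewer heart-field-only barcodes and less transcript per barcode cannot be told apart here. The class is itself set by counts of genes such as Isl1 and Nkx2-5, so ratios within it do not fully separate them either. At E8.5 the same list had a median of 0.21 over 13 genes, with none past 2-fold in either direction together with the remaining barcodes.

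**Figure D4:**
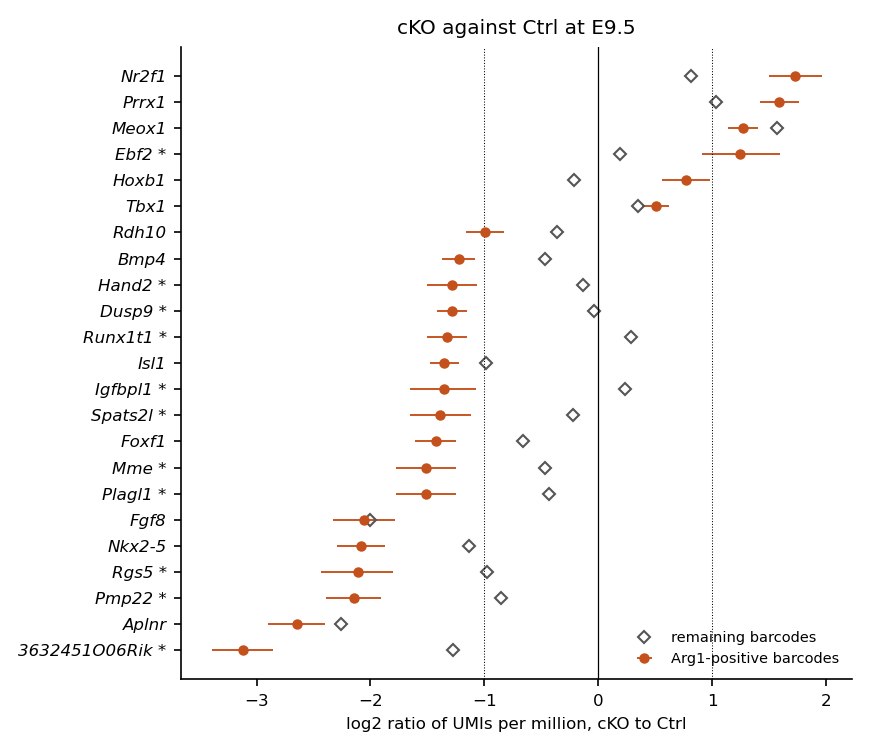
The log2 ratio of UPM between cKO and Ctrl at E9.5 (x axis) for named genes (y axis), with filled points and 95% counting intervals for Arg1-positive, Pax8-negative barcodes, open diamonds for the remaining barcodes of the same libraries, and asterisks at genes counted as past the fold in both respects. Dusp9, Runx1t1 and Igfbpl1 lie below -1 in the Arg1-positive barcodes and at -0.03 or above in the remaining ones, while Aplnr and Fgf8 lie far below 0 in both.

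Since the classes differed in number between the genotypes, the same ratios were taken within a class. In the heart-field-only class, 218 barcodes in Ctrl and 188 in cKO, the median of all genes was -0.18. Aplnr was 68.5 and 14.3 UPM (log2 ratio -2.26, -2.73 to -1.82), Fgf8 was 55.7 and 16.4 UPM (-1.77) and Fgf10 was 24.6 and 5.84 UPM (-2.08). Pmp22 was 89.7 and 31.0 UPM and 3632451O06Rik was 122 and 24.5 UPM. Mef2c, a partner of Isl1 in the anterior heart field, was 149 and 84.4 UPM, and Bmp4 was 175 and 93.8 UPM. Isl1 and Nkx2-5, which define the class, were 205 and 121 UPM and 124 and 57.3 UPM. Foxf1 and Osr1, which also define it, were 131 and 102 UPM and 94.4 and 85.9 UPM, and Aldh1a2 was 38.0 and 43.8 UPM, whose log2 ratio of 0.21 has an interval of -0.13 to 0.54. Fgf8, Fgf10 and Aplnr thus lay further below Ctrl within the class than Aldh1a2 did. Foxf1 and Osr1 help to admit a barcode to the class, so their ratios cannot be set against these.

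A few genes were higher within the heart-field-only class of cKO E9.5. Hoxb1 was 29.8 UPM in Ctrl and 59.6 UPM in cKO, with an interval of 0.67 to 1.34 for the log2 ratio. Over all Arg1-positive barcodes Hoxb1 was 47.6 and 52.7 UPM in those with Xist (0.15, -0.11 to 0.41) and 20.9 and 76.2 UPM in those with Y-linked UMIs (1.87, 1.41 to 2.35). This split was not made within the class. Nr2f1, an orphan nuclear receptor gene, was 9.61 and 49.1 UPM (2.35, 1.84 to 2.89), and Prrx1, a mesenchymal homeobox gene, was 24.4 and 61.6 UPM (1.34). Meox1 was 12.1 and 20.5 UPM, at most 1 UMI a barcode by the definition of the class.

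**Figure D5:**
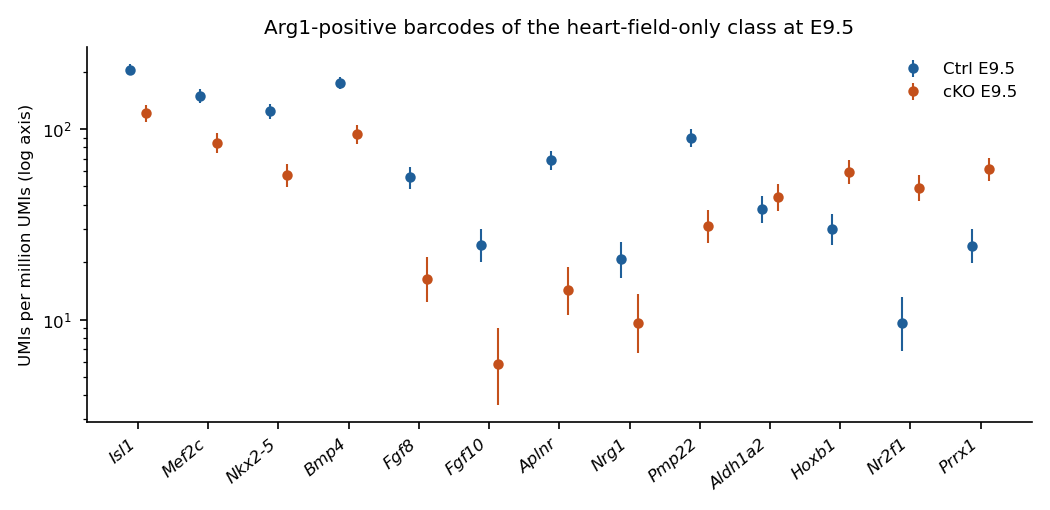
UPM (y axis, log axis) of 13 genes (x axis) in the heart-field-only class of Arg1-positive, Pax8-negative barcodes at E9.5, 218 barcodes in Ctrl and 188 in cKO, with 95% counting intervals. Fgf10, Aplnr and Fgf8 lie furthest below Ctrl in cKO, Aldh1a2 is near level, and Hoxb1, Prrx1 and Nr2f1 lie above Ctrl.

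Inside the Meox1/Tcf15-only class the E9.5 genotype ratios were of another kind. Rdh10 was 73.3 UPM in Ctrl and 24.1 UPM in cKO (log2 ratio -1.61, -2.03 to -1.18), Nrg1 was 38.1 and 7.89 UPM, and Aplnr was 47.6 and 6.96 UPM (-2.77). Hoxb1 was 12.4 and 39.9 UPM (1.69). Dlk1, a Notch ligand-like gene of immature mesenchyme, was 68.5 and 265 UPM. Fst, an inhibitor of activin and BMP, was 184 and 75.6 UPM, and Foxc2 was 143 and 62.2 UPM. Tbx1 itself was 140 and 181 UPM. The Ctrl values rest on 63 barcodes. In the class with both sets, 59 barcodes in Ctrl and 237 in cKO, Aplnr was 136 and 16.7 UPM, Fgf8 was 81.1 and 17.7 UPM, Rdh10 was 129 and 53.2 UPM, and Hoxb1 was 85.3 and 87.9 UPM. Lower Aplnr in cKO was common to the 3 classes, whereas the Hoxb1 ratio was near 0 in barcodes with both sets. Rdh10 was lower in the 3 classes too, but less so in the heart-field-only class, at 76.6 and 53.8 UPM (-0.51, -0.78 to -0.24). In barcodes with neither set the interval of its log2 ratio spanned 0 (-0.27, -1.08 to 0.58).

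At E8.5 the genotypes differed in few genes. Of 4644 genes, 4 (0.0861%) were higher in cKO, namely B230312C02Rik, Pyy, Dcaf17 and Gclm, and 0% were lower by the count against the remaining barcodes. By their own ratio alone 37 were 2-fold or more higher and 6 lower. The uncharacterised B230312C02Rik was 0.531 UPM in Ctrl, from 3 UMIs, and 46.2 UPM in cKO (log2 ratio 6.44, 4.88 to 8.72), with 1.38 and 38.3 UPM in the remaining barcodes. Pyy, a gut peptide hormone gene, was 17.0 and 71.6 UPM, with 23.7 and 35.6 UPM in the remaining barcodes. It was uneven within the library, since in cKO E8.5 it was 175 UPM in Arg1-positive barcodes with Xist and 23.9 UPM in those with Y-linked UMIs. Gclm was 59.8 and 24.5 UPM in the same barcodes. Aplnr was already lower at E8.5, at 71.9 UPM in Ctrl and 33.5 UPM in cKO (log2 ratio -1.10), with 26.9 and 16.4 UPM in the remaining barcodes.

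Between stages in Ctrl, more genes were higher than lower at E9.5 in Arg1-positive barcodes. Of 5041 genes, 46 (0.913%) were higher at E9.5 both in these barcodes and against the remaining ones, and 4 (0.0793%) were lower. The first 6 of the higher genes were Osr1, Foxf1, Lix1, Rgs5, Bmp4 and Gata6. Osr1 went from 4.07 to 60.2 UPM while the remaining barcodes went from 3.01 to 6.96 UPM, and Foxf1 from 11.7 to 82.4 UPM while the remaining ones held 4.24 and 4.78 UPM. Bmp4 went from 9.39 to 114 UPM, and from 17.7 to 40.6 UPM in the remaining barcodes. The lower genes included Gchfr, Fst and Cited1, of which Fst went from 402 to 63.8 UPM. The cardiopharyngeal list had a median log2 ratio of 1.25 over 19 genes, of which 16 were above 0, beside a median of 0.23 for all genes. The posterior second heart field list had a median of 0.96 over 7 genes, of which 5 were above 0 and 2 were counted as higher. Within the heart-field-only class, 40 barcodes at E8.5 and 218 at E9.5, Osr1 went from 10.6 to 94.4 UPM, Foxf1 from 43.8 to 131 UPM and Bmp4 from 42.5 to 175 UPM, whereas Hoxb1 went from 79.7 to 29.8 UPM.

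In cKO the stages differed in fewer genes by the same count. Of 4751 genes, 12 (0.253%) were higher and 4 (0.0842%) lower at E9.5. The first 6 of the higher genes were Foxf1, Osr1, Tnni1, Bmp4, Tagln and Dlk1, and the lower ones were P3h3, Tcf15, Gclm and Fst. Foxf1 went from 12.1 to 30.6 UPM, Osr1 from 5.71 to 35.6 UPM and Bmp4 from 11.2 to 48.8 UPM, all ending below their Ctrl E9.5 levels. Dlk1 went from 65.2 to 342 UPM, above the 227 UPM of Ctrl E9.5. Tcf15 went from 161 to 23.3 UPM in cKO and from 148 to 17.3 UPM in Ctrl, so this early somite gene was lower at E9.5 in both genotypes, while Meox1 went from 167 to 83.3 UPM in Ctrl and from 225 to 201 UPM in cKO. The stage comparisons share no library with each other, but every library also enters a genotype comparison.

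Barcodes with Pax8 that met every other limit numbered 1, 2, 7 and 153, so they were nearly all from cKO E9.5. Against the 805 Pax8-negative barcodes of that library, 18 of 4722 genes were 2-fold or more higher and 27 lower. Arg1 and Rdh10 were near level, at 331 against 334 UPM and 38.5 against 40.7 UPM, and Hoxb1 was 91.8 against 59.5 UPM. Bdnf, a neurotrophin gene, was 46.6 against 12.6 UPM, Pcp4 was 182 against 66.4 UPM, and the neurofilament genes Nefm and Nefl were 31.8 against 12.1 UPM and 57.7 against 24.8 UPM. Lum, a proteoglycan gene of mesenchyme, was 7.71 against 95.8 UPM, Foxd1 was 13.1 against 53.4 UPM and Sox9 was 21.5 against 55.1 UPM. Foxf1 had no UMI in the 153 barcodes against 30.6 UPM, Aldh1a2 was 0.335 against 14.3 UPM, and Osr1 was 22.8 against 35.6 UPM. By class, 68 of the 153 were Meox1/Tcf15 only, 13 heart field only, 66 both and 6 neither. Meox1 was 341 UPM on the Pax8-positive side against 201 UPM.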

How the data were processed

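Cells were dissociated, sorted for GFP and processed on the 10x Chromium 3′ platform. Per the labels the authors aligned reads with Cell Ranger 3.1.0 to mm10 and deposited the UMI counts of each gene in each barcode as whole numbers that were not normalized. The file headers of the E8.5 matrices name version 3.0.2. The cKO E9.5 matrix lists 31053 genes and the others 27998, so the 27514 shared gene IDs were used. The rule was applied to all deposited barcodes without a further filter, and no doublet caller was run. Counts were summed over barcodes, scaled to UMIs per 1000000 UMIs (UPM) and compared as log2 ratios with exact conditional binomial intervals, using Python 3.11.15 with numpy 2.4.6 and scipy 1.17.1. TMM factors came from edgeR 4.0.16. With 1 library per group no test was made. Genes needed a mean of 20 UPM, and 3 UMIs is the floor under which no ratio is read. Named genes were those of 27 lists, the 20 highest and 10 lowest in Arg1-positive barcodes, the 10 highest and lowest between genotypes and the 6 highest and lowest between stages, sex-linked genes left out. Ratios were tested on simulated counts with known folds. The members, lists and classes were chosen with earlier results of these data known, and the split by Xist and the ratios within classes were added after seeing the data. The motifs searched and the genes shown by class were likewise chosen after the values were seen. Some genes are not reported here.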

Additional observations from a re-analysis of the deposited data

How the results depend on the processing

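No paired analysis was possible because each group is 1 library, and the labels give no replicate number. With 1 library a group no replicate could be left out either, and depth limits the low genes. The difference in the share of Arg1-positive barcodes at E9.5 was 8.399 points with 2 or more Arg1 UMIs, 3.63 with 5 or more, 8.10 without the condition on Pax8 and 3.65 after thinning to 10000 UMIs, and at E8.5 it was 3.66 after thinning. It stayed positive under each of these settings and with the deepest 5% of barcodes and those under 5000 UMIs left out.

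Counts of genes past the fold, in both directions together, moved by more than 1.5 times under these settings. As reported they were 5 for Arg1-positive against remaining barcodes, 11 and 4 between genotypes at E9.5 and E8.5, and 50 and 16 between stages in Ctrl and cKO. With the filter at 5 UPM they were, in the same order, 37, 48, 27, 166 and 52. At 50 UPM they were 2, 2, 0, 15 and 9. Without ribosomal, mitochondrial and haemoglobin genes they were 8 against the remaining barcodes, 24 at E9.5 and 7 at E8.5. For cKO against Ctrl at E9.5 the count was 6 with 2 or more Arg1 UMIs, 17 without the Pax8 condition and 19 against remaining barcodes within the same limits. At E8.5 it was 13 after thinning. Between stages it was 85 in Ctrl with 5 or more Arg1 UMIs, and 10 in cKO with the mean of per-barcode UPM. TMM scaling, with a log2 factor ratio of -0.22 between the Arg1-positive barcodes of the E9.5 libraries, moved no count by that much. The cause was not tested beyond each setting's own construction.

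Settings added after seeing the data changed more. By the ratio of the Arg1-positive barcodes alone the counts were 156 and 43 between genotypes at E9.5 and E8.5 and 362 and 219 between stages in Ctrl and cKO. Within the Meox1/Tcf15-only class they were 10 against remaining barcodes, 1 between genotypes at E8.5 and 25 between stages in cKO, and within the heart-field-only class 38, 67 and 45. Between genotypes at E9.5 each class kept few of the 10 lower genes, 1 in the Meox1/Tcf15-only class and 3 in the heart-field-only class. The log2 ratio turned its sign within the Meox1/Tcf15-only class for Igfbpl1 (0.83), Dusp9 (0.29) and Plagl1 (1.07, a bound, from 0 UMIs in Ctrl) between genotypes at E9.5 and for Foxf1 between stages (-0.034 in Ctrl, -0.97 in cKO), whose Foxf1 counts the class itself keeps low, and within the heart-field-only class for Dcaf17 (-0.36) between genotypes at E8.5 and P3h3 (0.27) between stages in cKO. Of the 35 named ratios, none changed sign under the other settings.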
